A study of Mus musculus with 12 samples.

Results

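Red cell genes were followed in lung and liver of virgin and pregnant mice. The group held 10 genes: Alas2, Klf1, Slc4a1, Hba-a2, Epb42, Car1, Car2, Bpgm, Tspan33 and Trim10. Every probe set whose only gene symbol in the platform annotation was one of these was taken. That gave 18 of the 45037 probe sets other than controls, and 10 of the 18193 genes that have a probe set with a single symbol. Bpgm and Slc4a1 had 3 probe sets each, Tspan33 had 4, Epb42 had 2 and the other 6 genes had 1. Probe sets of one gene read the same transcripts and are not independent measurements.

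The arrays came from female NOD/SCID mice of in-house breeding, which carry the NOD background and the immunodeficiency mutation scid and so lack mature T and B cells. They were 8 to 10 weeks old when the experiments began. The 4 groups were lung of virgin mice, lung of mice at day 16 of pregnancy, liver of virgin mice and liver of mice at day 16 of pregnancy. Each group had 3 one-colour arrays, and each array measured RNA pooled from 2 mice, so a p-value refers to how pools vary, and precision is bounded by so few arrays. Whole organs were ground in liquid nitrogen, and the labels mention no step that would wash blood out of them. In bulk samples of this kind, fewer red cells and less RNA per red cell cannot be told apart.

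Red cells are made from precursors that switch on a shared set of genes under the transcription factors GATA1 and KLF1. These genes encode the globin chains, the haem synthesis enzymes, the membrane skeleton and the enzymes that set gas exchange and oxygen release. In the adult mouse the precursors sit in bone marrow and spleen, while in the fetus they sit in the liver. Young circulating red cells, the reticulocytes, still carry RNA, so blood in an organ contributes such transcripts. Several of the genes, among them Car2 and Bpgm, are also used by cells outside the red cell lineage.

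The tissues carried their own markers, with 9 of 9 measured lung epithelium genes higher in virgin lung and 9 of 9 hepatocyte genes higher in virgin liver. Poly-A spike-in RNA read 11.84 to 12.34 (mean log2 value of its probe sets) on 10 arrays but 4.95 on virgin liver pool 3 and 5.33 on pregnant liver pool 3. No batch is given in the labels, so liver pools 1 and 2 and liver pool 3 are here called the 2 pool sets by this spike signal alone. Liver changes are also given within the pool sets, pools 1 and 2 first, wherever these differ by more than 1.5 times. The array medians were 4.49 to 4.56. A probe set below the median of its array, about 4.53, is called dim here, since signal above background is not shown there.

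Of 12 red cell precursor markers listed beside the gene group, 9 were measured. Alas2, Klf1, Slc4a1, Trim10, Hba-a2 and Epb42 are themselves members, so the list is not a separate check of the group. Only Gata1, Ermap and Rhag lie outside it. On every lung array 3 of the 9 (Alas2, Slc4a1 and Trim10) lay above the array median, and on every liver array 2 did (Alas2 and Klf1). Ermap, Epb42 and Rhag, which encode proteins of the red cell surface and skeleton, were dim on all 12 arrays. Gata1 averaged 4.50 in virgin lung and 4.25 in virgin liver, around or below the array median. The single-symbol probe set of Hba-a2 lay close to the median, with means of 5.24 in virgin lung and 4.74 in virgin liver. The set 1417714_x_at, shared by Hba-a2 and Hba-a1, averaged 14.71 and 12.56 in these groups. The single-symbol set therefore does not give the level of alpha globin RNA. Klf1 in lung, and Slc4a1 and Trim10 in liver, fell below the array median on 1 pregnant array each. Hbb-b1 counted as not measured because its probe set, 1417184_s_at, is shared with other beta globin genes. That set averaged 14.07 in virgin lung and 12.6 in virgin liver. By single-symbol probe sets the markers were thus not all above the median together in either organ. The genes are described one by one.

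In pregnant liver the group split. Alas2, all 3 probe sets of Bpgm and 3 of 4 probe sets of Tspan33 rose, with folds of 1.44 to 2.27. Car1 and Car2 fell, by 1.71 and 1.35 times. The brighter probe set of Epb42 was also called lower, but it was dim on all 12 arrays and no fold is given for it. The globin, Slc4a1, Klf1 and Trim10 probe sets did not pass in liver. In total 10 of 18 probe sets from 6 genes passed in liver, 7 of them upwards and 3 downwards, where 8.16% of all probe sets passed (3.7% higher and 4.46% lower). The median log2 change of the 18 was 0.14, beside 0 over all probe sets.

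In pregnant lung 2 of the 18 probe sets passed, 1 of Bpgm and that of Trim10, both downwards, where 0.213% of all probe sets passed. None was higher at an adjusted p under 0.05 in limma, and at an unadjusted p under 0.05 there were 0 higher and 6 lower. The share of all probe sets at that unadjusted threshold was not counted. Unadjusted counts, here and for the lists below, therefore have no baseline and are not read as a trend. The median log2 change of the 18 was -0.20. Both lung calls were lost when single arrays were left out, as described with each gene. All calls come from limma fitted over the 45037 probe sets, with Benjamini-Hochberg adjustment over all of them.

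**Figure D1:**
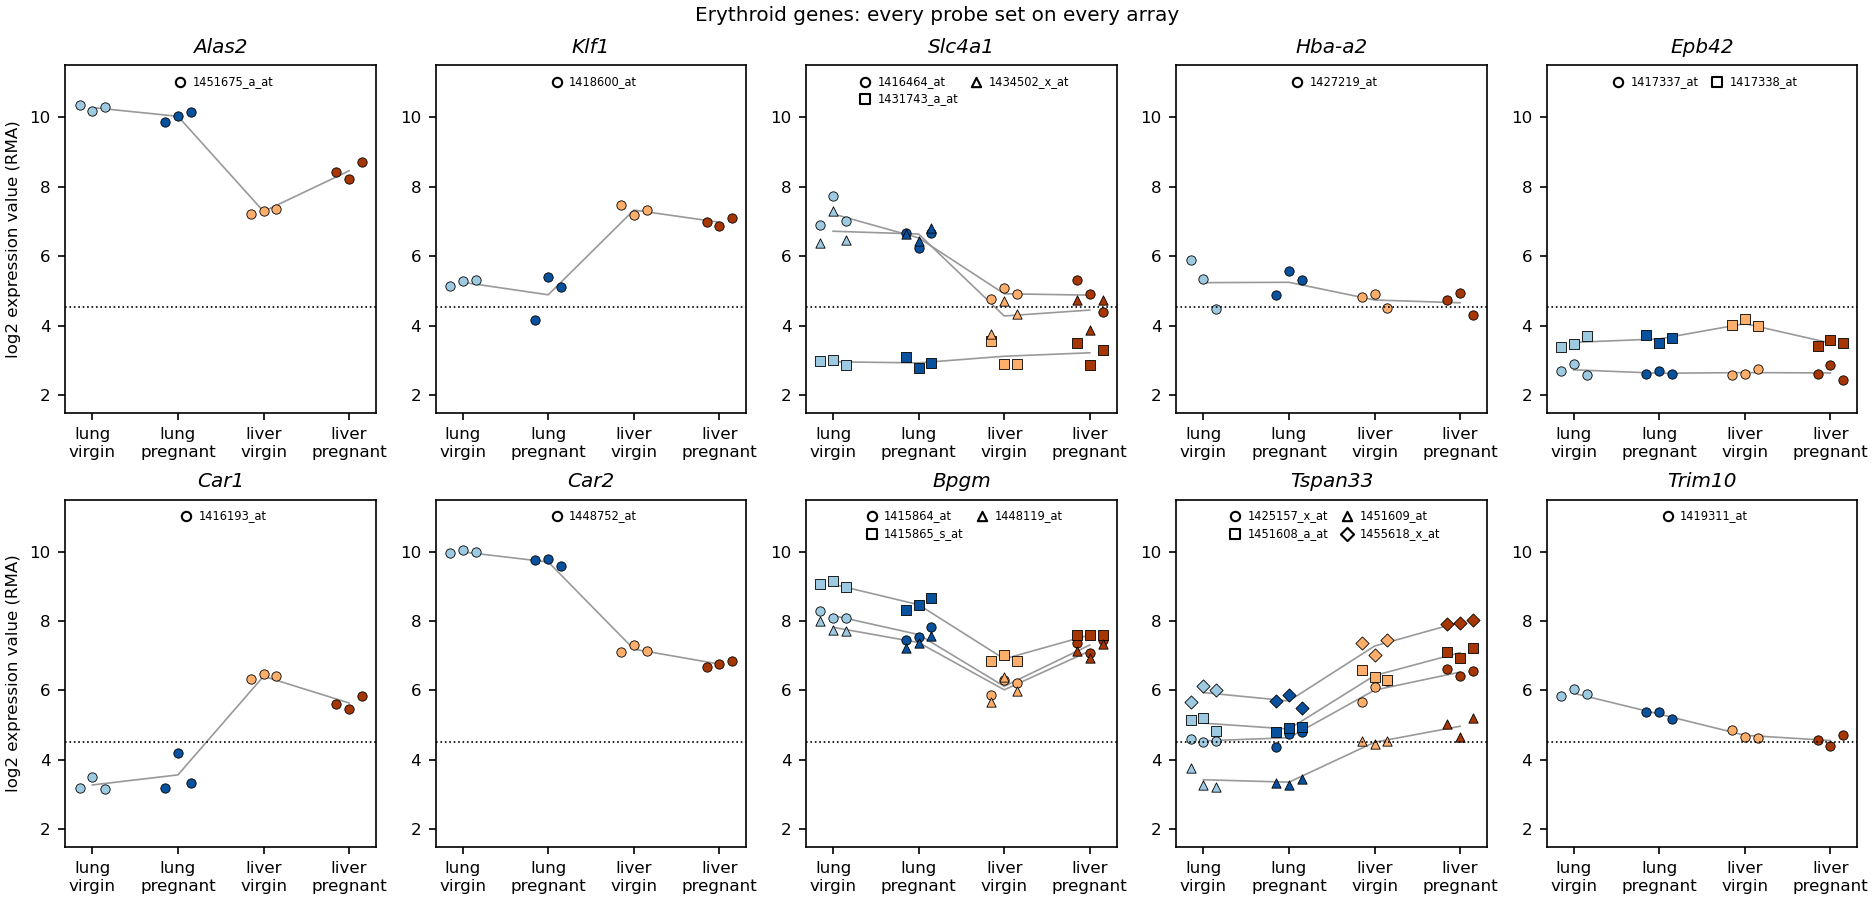
Log2 expression value (vertical axis) of every probe set of the 10 genes on each of the 12 arrays, in columns for the lung groups (virgin first) and then the liver groups. Points are arrays, marker shapes are probe sets, grey lines join the means of 3 arrays, and the dotted line is the median of all probe sets, 4.53. Alas2 reads 10.28 in virgin lung and goes from 7.29 to 8.46 in liver, while both probe sets of Epb42 stay under the dotted line.

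**Figure D2:**
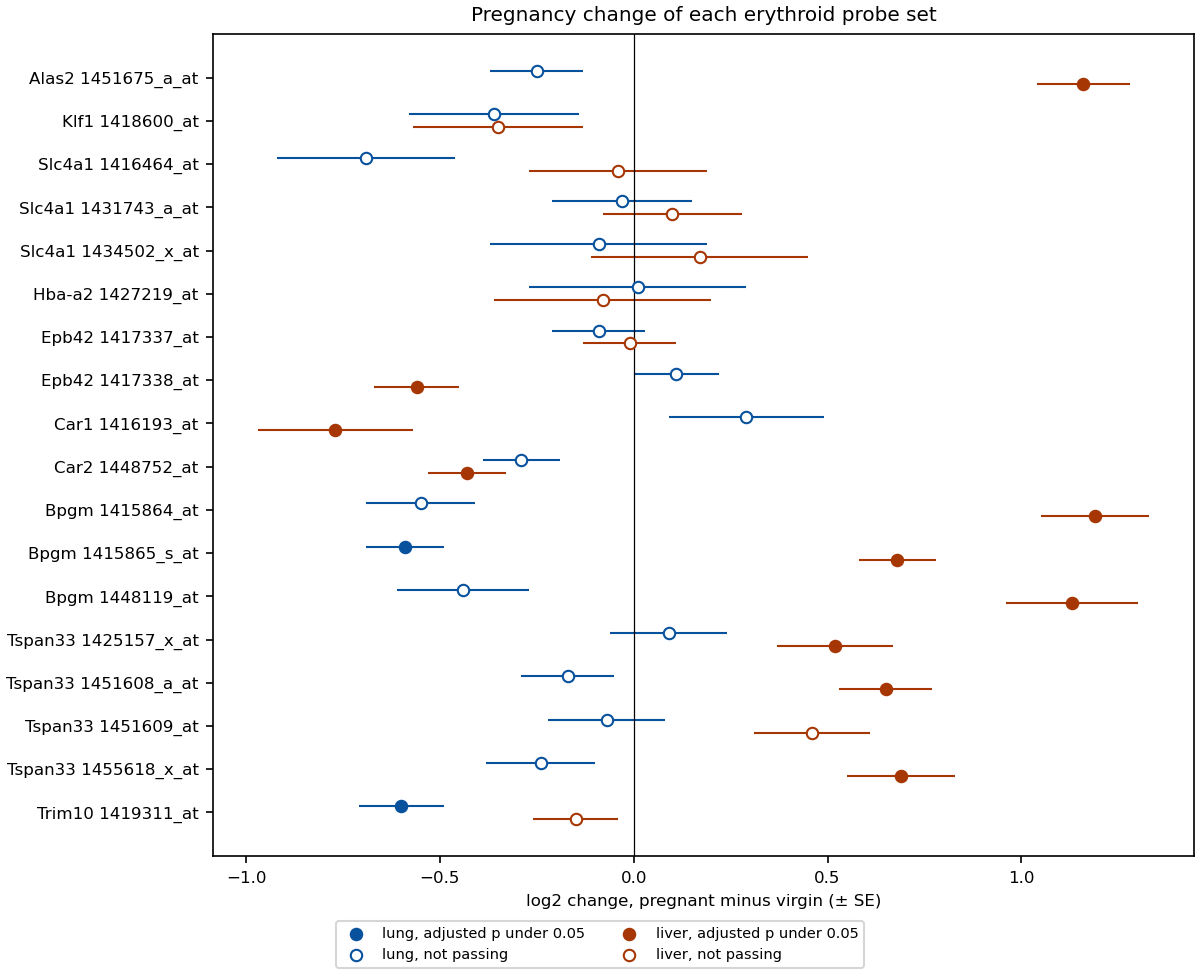
Log2 change, pregnant minus virgin, with its SE (horizontal axis) for each of the 18 probe sets in lung and in liver. Filled points had an adjusted p under 0.05. The liver points of Alas2, Bpgm and Tspan33 lie to the right of 0, those of Car1, Car2 and one Epb42 probe set to the left, and in lung one Bpgm probe set and Trim10 are filled.

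The 250 bases before the gene start are shown for 4 genes, since 3 of them rose in pregnant liver and Epb42 was called lower there on a dim probe set. They come from RefSeq on build GRCm38.p6, whose promoter table matched 7 of the 10 genes; Slc4a1, Car1 and Car2 were not matched. Capitals mark matches, on either strand, to the core bound by GATA factors (AGATAA or TGATAA) and to the CACCC box bound by KLF factors (CCNCNCCC), whose letters overlap the GC box of other factors. Alas2 lies at chrX:150547417-150570622, and its window is chrX:150547167-150547416 on the plus strand. The Bpgm window is chr6:34476106-34476355 and the Tspan33 window chr6:29693964-29694213, both on the plus strand. The Epb42 window is chr2:121036878-121037127 on the minus strand.
Alas2: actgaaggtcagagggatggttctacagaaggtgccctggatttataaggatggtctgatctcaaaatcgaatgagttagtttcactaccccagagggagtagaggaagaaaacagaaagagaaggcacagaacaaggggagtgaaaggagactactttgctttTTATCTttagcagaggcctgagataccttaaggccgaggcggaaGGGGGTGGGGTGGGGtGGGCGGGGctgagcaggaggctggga
Bpgm: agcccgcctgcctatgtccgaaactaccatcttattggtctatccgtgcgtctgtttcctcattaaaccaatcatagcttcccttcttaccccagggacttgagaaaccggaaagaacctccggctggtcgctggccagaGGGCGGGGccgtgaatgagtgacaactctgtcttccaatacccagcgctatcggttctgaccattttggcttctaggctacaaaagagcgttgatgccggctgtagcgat
Tspan33: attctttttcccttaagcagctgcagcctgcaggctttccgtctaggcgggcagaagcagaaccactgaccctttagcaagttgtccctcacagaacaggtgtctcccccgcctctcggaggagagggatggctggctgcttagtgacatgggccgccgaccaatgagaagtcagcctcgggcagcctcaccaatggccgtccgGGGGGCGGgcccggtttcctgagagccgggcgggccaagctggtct
Epb42: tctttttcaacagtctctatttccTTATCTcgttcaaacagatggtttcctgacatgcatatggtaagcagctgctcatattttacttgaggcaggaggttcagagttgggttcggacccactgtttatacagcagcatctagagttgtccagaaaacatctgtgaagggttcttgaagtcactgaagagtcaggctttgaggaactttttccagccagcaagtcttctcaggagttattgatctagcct

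The Alas2 window held 1 GATA match, 86 to 81 bases before the start, and 4 overlapping or adjoining CACCC matches between 42 and 19 bases before it. Bpgm and Tspan33, which rose with Alas2 in liver, held 0 GATA matches and 1 CACCC match each. Epb42, called lower in liver on a probe set dim on all 12 arrays, held 1 GATA match, 226 to 221 bases before its start. Among the others, Klf1, Hba-a2 and Trim10 held 1 GATA match each and 0 CACCC matches. Of 32851 RefSeq windows of this length, 16.6% held a GATA match and 45.9% a CACCC match. The 3 risers therefore did not share a GATA match in this window, and a match here is a description of letters.

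Alas2 encodes the red cell form of aminolevulinate synthase, which makes the first committed intermediate of haem. Its single probe set read 10.36, 10.18 and 10.31 in virgin lung, 9.88, 10.05 and 10.16 in pregnant lung, 7.22, 7.30 and 7.36 in virgin liver and 8.42, 8.23 and 8.71 in pregnant liver. All 3 pregnant livers lay above all virgin livers, and no 2 neighbouring groups in the order virgin lung, pregnant lung, pregnant liver, virgin liver overlapped. The liver rise was 1.16 ± 0.12 (log2, SE, with 3 pools in each group, adjusted p = 1.94e-05 in limma), or 2.24-fold. It passed in each of 12 fits without 1 array, with values from 1.03 to 1.27. In lung the difference was -0.25 ± 0.12 (adjusted p = 0.711, unadjusted 95% interval -0.52 to 0.01). The lung change minus the liver change was -1.42 ± 0.17 (adjusted p = 0.000188). Virgin lung exceeded virgin liver by 2.99 ± 0.12, or 7.94-fold.

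Bpgm encodes bisphosphoglycerate mutase, which makes the small molecule that loosens the grip of haemoglobin on oxygen. Its probe set 1415864_at read 8.30, 8.08 and 8.10 in virgin lung, 7.44, 7.55 and 7.84 in pregnant lung, 5.86, 6.29 and 6.22 in virgin liver and 7.38, 7.09 and 7.45 in pregnant liver. On this probe set pregnant lung and pregnant liver overlapped, while virgin lung and virgin liver lay 2.03 apart. The second probe set, 1415865_s_at, went from 9.06 ± 0.0862 to 8.47 ± 0.162 in lung and from 6.91 ± 0.0939 to 7.60 ± 0.00858 in liver (SD, n = 3). The third, 1448119_at, went from 7.82 ± 0.151 to 7.38 ± 0.175 in lung and from 6.02 ± 0.356 to 7.14 ± 0.212 in liver.

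In liver the 3 Bpgm probe sets rose by 1.19 ± 0.14, 0.68 ± 0.10 and 1.13 ± 0.17 (log2, SE, limma adjusted p = 6.96e-05, 0.000549 and 0.000427). Each passed in all 12 fits without 1 array. In lung the differences were -0.55 ± 0.14, -0.59 ± 0.10 and -0.44 ± 0.17, and for none of the 3 was there any overlap of virgin with pregnant pools. The second alone passed (adjusted p = 0.0316), and the other 2 had an adjusted p of 0.178 and 0.476. That lung call was lost without virgin pool 1, 2 or 3 and without pregnant pool 1 or 2 (highest adjusted p = 0.169, without virgin pool 2). Its adjusted p was 0.0949 with the pool number as a block and 0.0770 in the 6 lung arrays alone. The lung change minus the liver change was -1.73 ± 0.20, -1.27 ± 0.15 and -1.57 ± 0.23 (adjusted p = 0.000112, 0.000103 and 0.00112). The size of the liver rise also differed between the probe sets, from 1.61-fold to 2.27-fold.

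Tspan33 encodes a tetraspanin membrane protein known from red cell progenitors. All 4 of its probe sets were higher in virgin liver than in virgin lung, by 1.08 to 1.45, the opposite of Alas2 and Bpgm. The brightest, 1455618_x_at, read 7.36, 7.02 and 7.45 in virgin liver and 7.91, 7.95 and 8.04 in pregnant liver. In lung it read 5.68, 6.13 and 6.0 in virgin and 5.69, 5.88 and 5.51 in pregnant mice, and these groups overlapped. The liver rise was 0.69 ± 0.14 (limma adjusted p = 0.00598), and that of 1451608_a_at was 0.65 ± 0.12 (adjusted p = 0.00315). Both passed in 12 of 12 fits without 1 array.

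The other Tspan33 probe sets were less steady. For 1425157_x_at the liver rise was 0.52 ± 0.15 (adjusted p = 0.0408), with 0.64 within pools 1 and 2 and 0.29 within pool 3. It passed in 3 of 12 fits without 1 array (highest adjusted p = 0.165, without virgin liver pool 1, the range over fits being 0.35 to 0.65), and its adjusted p was 0.0668 with the pool number as a block and 0.104 in the 6 liver arrays alone. Leaving out virgin liver pool 1 or 2 ended the call, as did any pregnant liver pool, any virgin lung pool or pregnant lung pool 2. For 1451609_at, dim in lung, the liver difference was 0.46 ± 0.15 (adjusted p = 0.0813), and it passed without virgin lung pool 1 or pregnant liver pool 2 (adjusted p = 0.0426 and 0.0214). Within the pool sets 1451608_a_at changed by 0.52 and 0.91, and 1451609_at had differences of 0.36 and 0.67. The lung differences of the 4 were -0.24 to 0.09 and none passed. The lung change minus the liver change passed for 1451608_a_at and 1455618_x_at, at -0.82 ± 0.17 and -0.93 ± 0.20 (adjusted p = 0.0141 and 0.0155). Without both liver pools 3 the first was -0.69 with an adjusted p of 0.0679, and without virgin lung pool 2 the adjusted p of the second was 0.0505.

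Car1 and Car2 encode cytosolic carbonic anhydrases, which interconvert carbon dioxide and bicarbonate, and both are abundant in mature red cells. They lie close together on chromosome 3, Car1 at 14766214 to 14808365 and Car2 at 14886269 to 14900770 (RefSeq, GRCm38.p6). Their tissue patterns were opposite. Car1 read 6.32, 6.48 and 6.43 in virgin liver and 5.61, 5.47 and 5.84 in pregnant liver, but was dim in lung, at 3.18, 3.50 and 3.16 in virgin and 3.18, 4.19 and 3.34 in pregnant mice. Car2 read 9.95, 10.04 and 9.99 in virgin lung, 9.75, 9.78 and 9.58 in pregnant lung, 7.12, 7.31 and 7.14 in virgin liver and 6.68, 6.76 and 6.85 in pregnant liver. Virgin lung minus virgin liver was 2.80 ± 0.10 for Car2. For Car1 it was -3.13 ± 0.20, measured against a lung level not shown to be above background.

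Both carbonic anhydrase genes fell in pregnant liver. The changes were -0.77 ± 0.20 for Car1 (log2, SE, limma adjusted p = 0.0283) and -0.43 ± 0.10 for Car2 (adjusted p = 0.0128), and neither pair of liver groups overlapped. The Car1 call was lost when any of 5 liver pools was left out, all but pregnant pool 3 (highest adjusted p = 0.0983, without pregnant pool 2), and without both liver pools 3 (0.0689). The Car2 call was lost without virgin liver pool 2 (0.0595), without pregnant liver pool 1 and in the fit of the 6 liver arrays alone (0.0683). For Car2 the change was -0.50 in pools 1 and 2 alone, against -0.29 in pool 3. In lung Car2 had a difference of -0.29 ± 0.10 (adjusted p = 0.374) with groups that did not overlap, and Car1 one of 0.29 ± 0.20 (adjusted p = 0.888). The lung change minus the liver change of Car1 was 1.06 ± 0.29 (adjusted p = 0.0592), which became 0.0233 without pregnant lung pool 1 and 0.0173 with the pool number as a block.

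Trim10 encodes a RING finger protein of the TRIM family that is made in maturing red cell precursors. It read 5.83, 6.04 and 5.90 in virgin lung, 5.39, 5.38 and 5.18 in pregnant lung, 4.85, 4.66 and 4.62 in virgin liver and 4.57, 4.39 and 4.71 in pregnant liver. The lung groups did not overlap and the liver groups did. The lung change was -0.60 ± 0.11 (limma adjusted p = 0.0468), or 1.52-fold lower. The call was lost when any single lung array was left out (adjusted p up to 0.213, for virgin pool 2), or when virgin liver pool 2 or 3 or pregnant liver pool 1 was, while the value itself stayed between -0.65 and -0.53. The adjusted p was 0.0920 with the pool number as a block, 0.102 after quantile normalization, 0.0514 with arrays centred on their median and 0.0612 in the 6 lung arrays alone. In liver the difference was -0.15 ± 0.11 (adjusted p = 0.494, unadjusted 95% interval -0.40 to 0.09), with -0.28 within pools 1 and 2 and 0.09 within pool 3. The difference between the tissues' changes was -0.45 ± 0.16 and did not pass (adjusted p = 0.177).

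Klf1 encodes the red cell Krüppel-like factor. It read 5.14, 5.29 and 5.32 in virgin lung, 4.16, 5.41 and 5.11 in pregnant lung, 7.47, 7.19 and 7.34 in virgin liver and 6.99, 6.86 and 7.09 in pregnant liver. The pregnant lung pool 1 value lay below the array median. The pregnancy differences were -0.36 ± 0.22 in lung and -0.35 ± 0.22 in liver (limma adjusted p = 0.85 and 0.411), and the liver groups did not overlap. Within pools 1 and 2 the liver difference was -0.40, and within pool 3 it was -0.25. Virgin liver exceeded virgin lung by 2.08 ± 0.22 on the log2 scale, or 4.23-fold, a tissue order opposite to that of Alas2 and Slc4a1.

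Slc4a1 encodes the anion exchanger of the red cell membrane, and Epb42 a protein that ties it to the membrane skeleton. The Slc4a1 probe set 1416464_at read 6.90, 7.74 and 7.02 in virgin lung, 6.68, 6.25 and 6.67 in pregnant lung, 4.76, 5.09 and 4.90 in virgin liver and 5.33, 4.92 and 4.39 in pregnant liver. Its lung difference was -0.69 ± 0.23 (limma adjusted p = 0.375) and -0.43 without virgin pool 2, whose value was the highest. The probe set 1434502_x_at, which may read related sequences, gave a lung difference of -0.09 ± 0.28 (adjusted p = 0.998), so these 2 probe sets did not give the same size in lung. In virgin mice both were higher in lung than in liver, by 2.30 ± 0.23 and 2.45 ± 0.28. In liver they differed by -0.04 and 0.17, and neither passed. Within the pool sets these were 0.20 and -0.51 for the first and 0.07 and 0.38 for the second. The third probe set, 1431743_a_at, was dim on all 12 arrays, with group means of 2.93 to 3.22 and a liver difference of 0.10 (-0.05 and 0.40 within the pool sets).

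Both Epb42 probe sets were dim on all 12 arrays. The probe set 1417338_at read 4.01, 4.18 and 4.00 in virgin liver and 3.42, 3.58 and 3.50 in pregnant liver, and these groups did not overlap. The liver change, at levels not shown to be above background, was -0.56 ± 0.11 (limma adjusted p = 0.00424) and passed in 12 of 12 fits without 1 array. In lung it read 3.52 ± 0.159 in virgin and 3.62 ± 0.125 in pregnant mice (SD, n = 3). The lung change minus the liver change was 0.67 ± 0.15 (adjusted p = 0.0251) and was lost in 6 of 12 fits without 1 array (virgin lung pool 1 or 2, pregnant lung pool 1 or 3, virgin liver pool 2 or pregnant liver pool 1, highest adjusted p = 0.0770). It was also lost with the pool number as a block (0.0507). The other probe set, 1417337_at, had group means of 2.63 to 2.73 and differences of -0.09 in lung and -0.01 in liver, the latter 0.14 and -0.32 within the pool sets.

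Hba-a2 encodes an adult alpha globin chain. Its only probe set with a single symbol, 1427219_at, read 5.89, 5.35 and 4.47 in virgin lung, 4.87, 5.57 and 5.31 in pregnant lung, 4.82, 4.90 and 4.51 in virgin liver and 4.75, 4.93 and 4.31 in pregnant liver. All 4 groups overlapped their neighbours. Its differences were 0.01 ± 0.28 in lung and -0.08 ± 0.28 in liver (limma adjusted p = 0.998 and 0.915), with unadjusted 95% intervals of -0.59 to 0.61 and -0.68 to 0.52. Within the pool sets the liver difference was -0.02 and -0.20.

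Globin probe sets that the annotation gives to several genes are not members by the rule and were looked at after the values of Hba-a2 had been seen. In lung those for Hba-a1 and Hba-a2 together lay near the array maximum of 14.65 to 14.77. On each lung array the rounded value of 1417714_x_at was that maximum. In liver they lay lower, at group means of 12.56 to 13.24 under array maxima of 14.52 to 14.55. The set 1417714_x_at averaged 14.71 ± 0.0534 in virgin lung, 14.68 ± 0.0333 in pregnant lung, 12.56 ± 0.207 in virgin liver and 12.70 ± 0.268 in pregnant liver (SD, n = 3). Its liver difference was 0.13 ± 0.13 (adjusted p = 0.638, unadjusted 95% interval -0.15 to 0.41), with -0.03 within pools 1 and 2 and 0.45 within pool 3. The beta globin set 1417184_s_at, shared by Hbb-bt, Hbb-bs, Hbb-b2 and Hbb-b1, had a liver difference of 0.07 ± 0.14 and a lung difference of 0.01 ± 0.14 (adjusted p = 0.826 and 0.998), the liver value being -0.06 and 0.33 within the pool sets. Close to the top of the scale a difference between arrays can be compressed. Whether differences were compressed at the liver levels was not tested. The Alas2 rise in liver was 1.07 within pools 1 and 2 and 1.36 within pool 3.

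**Figure D3:**
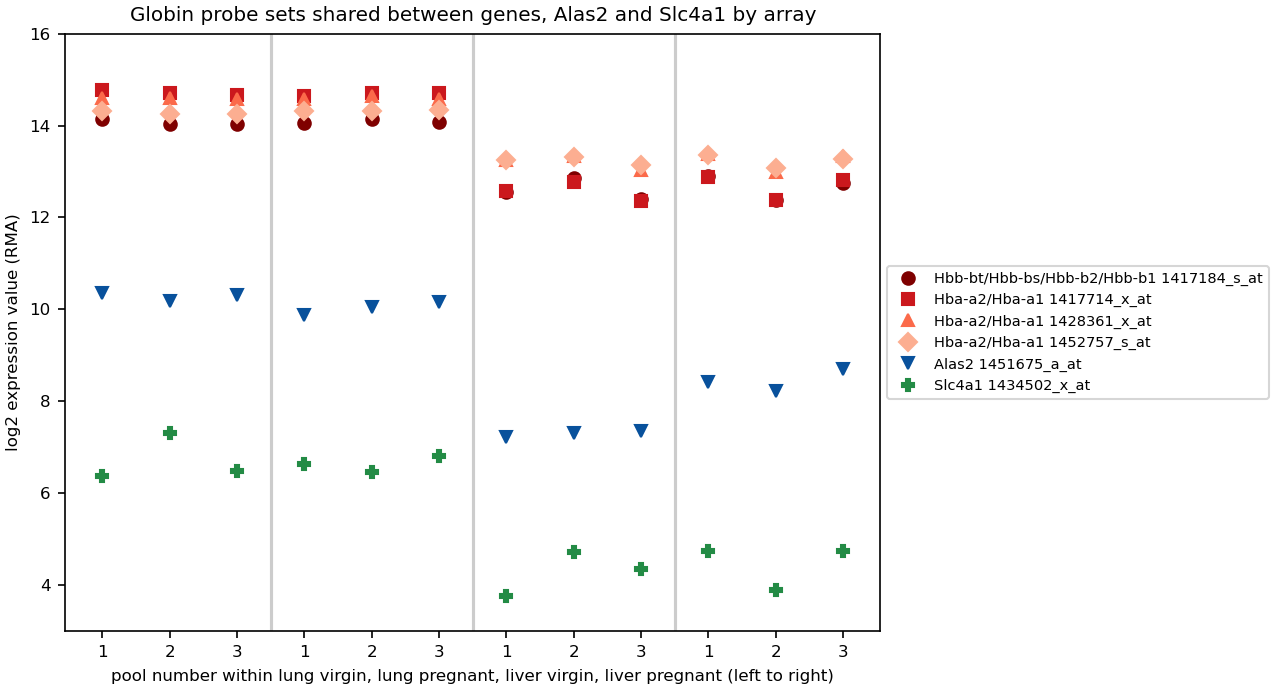
Log2 expression value (vertical axis) of the 4 globin probe sets shared between genes, of Alas2 and of the Slc4a1 probe set 1434502_x_at on each of the 12 arrays, by pool number within each group, the lung groups left and the liver groups right, virgin before pregnant. Points are arrays. The globin values of virgin and pregnant mice overlap within each tissue, while Alas2 goes from a mean of 7.29 to 8.46 in liver.

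The order of the tissues also split the group. In virgin mice 15 of 18 probe sets differed between the organs, 8 higher in lung and 7 higher in liver, where 55.9% of all probe sets differed (26.2% higher in lung and 29.7% lower). Alas2, Bpgm, Car2, Trim10 and 2 Slc4a1 probe sets were higher in lung. Klf1, Car1, Tspan33 and 1 Epb42 probe set were higher in liver. Groups of pools did not overlap between the virgin organs for 15 of the 18, beside 63.5% of all probe sets. Between virgin and pregnant mice they did not overlap for 7 of 18 in lung, beside 15.6% of all probe sets, and for 12 of 18 in liver, beside 22.6%. The change in lung differed from that in liver for 7 probe sets of 4 genes, Alas2, Bpgm, Tspan33 and Epb42, 6 downwards and 1 upwards, where 3.42% of all probe sets differed (1.7% higher and 1.73% lower).

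Within groups, the pools did not order the genes alike. Over the 12 arrays, after each group mean was taken off, the other 17 probe sets were correlated with Alas2. The Pearson correlation ran from -0.66 for 1 Epb42 probe set, dim on all 12 arrays, to 0.78 for 1 Bpgm probe set. The 5 genes most like Alas2 by this measure, out of 20587 candidate probe sets above the median, were Zfpl1 and Cybb (r = 0.98), Pth1r (0.97), and Plxnc1 and Zc3h7a (0.96). Their liver differences were -0.47 to -0.06, and of the 5 Pth1r alone passed, downwards (limma adjusted p = 0.0249). The 5 were picked as the highest r of 20587 over 12 arrays, so values this high can come from the picking alone.

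The remaining haem synthesis genes did not move together in liver. Of 29 probe sets from 12 measured genes, Alas2 among them, 2 rose, 2 fell and 25 did not pass, and the median was -0.07. The calls came to 13.8% of the list, beside 8.16% of all probe sets. Alad, the enzyme that follows aminolevulinate synthase, rose on 1 of its probe sets, 1457306_at, from 7.65 ± 0.296 to 9.43 ± 0.202 (SD, n = 3), a change of 1.79 ± 0.14 (limma adjusted p = 1.11e-06). Its brighter probe set, 1424877_a_at, had a liver difference of 0.34 ± 0.12 (adjusted p = 0.1), with 0.26 and 0.50 within the pool sets, so the 2 did not give the same size. Fech, which inserts iron into haem as the last step, fell on 2 of 4 probe sets, with -0.51 ± 0.12 for 1449181_at (adjusted p = 0.0161), lost without virgin liver pool 1 (0.0693) and without both liver pools 3 (0.0633). For the mitochondrial transporter gene Abcb10 the dim probe set 1454265_a_at had a difference of 0.43 (adjusted p = 0.0597), which passed without pregnant lung pool 2 (0.0459) or pregnant liver pool 2 (0.0364). Its brighter probe sets 1416402_at and 1416403_at had differences of -0.37 and 0.09 (adjusted p = 0.14 and 0.751), with -0.49 and -0.14, and 0.02 and 0.23, within the pool sets, so the 3 did not share a direction. In lung 0 of the 29 passed in limma, and at an unadjusted p under 0.05 there were 0 higher and 5 lower; Fech, Slc25a39 and Alad had differences of -0.37, -0.35 and -0.24 (adjusted p = 0.267, 0.307 and 0.729).

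Iron uptake genes showed a single large rise. Tfrc, the receptor that takes up transferrin-bound iron, rose from 7.81 ± 0.308 to 9.32 ± 0.339 on 1452661_at (SD, n = 3), a change of 1.51 ± 0.18 (limma adjusted p = 6.46e-05). It also rose by 0.51 ± 0.10 on 1422966_a_at, with 0.42 and 0.70 within the pool sets. The array carries 3 control probe sets for the same receptor, outside the tested set and all dim, whose liver differences were 0.34, 0.41 and 0.22. Slc25a37, which brings iron into mitochondria for haem, changed by -0.69 ± 0.11 (adjusted p = 0.00114), and within the pool sets by -0.57 and -0.93. The iron-regulated aconitase gene Aco1 changed by -0.89 ± 0.11 on 1423644_at (limma adjusted p = 0.000126). Its brighter probe set, 1456728_x_at, changed by -0.52 ± 0.12 (adjusted p = 0.0138). The dim 1447080_at had a difference of -0.04 (adjusted p = 0.874), with -0.02 and -0.09 within the pool sets. Of 22 probe sets from 10 genes, 2 rose, 4 fell and 16 did not pass in liver, so 27.3% passed, beside 8.16% of all probe sets. In lung 0 passed in limma (0 higher and 3 lower at an unadjusted p under 0.05), and Tfr2, Slc25a37 and Steap3 had differences of -0.46, -0.40 and -0.23. The Tfr2 and Steap3 probe sets, 1459994_x_at and 1430355_a_at, were dim in lung. The brightest there of these 2 genes, 1425381_a_at and 1423468_at, had -0.18 each.

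Among the membrane and skeleton genes, 36 probe sets from 17 genes, 3 of Tspan33 rose in liver and 1 of Epb42 and 1 of Gypc fell. These calls made up 13.9% of the list, where 8.16% of all probe sets passed. Gypc, which encodes glycophorin C, changed by -0.88 ± 0.14 (limma adjusted p = 0.000745). The spectrin gene Sptb and the blood group gene Kel had differences of 0.51 and 0.31 (adjusted p = 0.123 and 0.127), with 0.78 within pools 1 and 2 and -0.04 within pool 3 for Sptb, and 0.41 and 0.11 for Kel. Sptb passed without pregnant liver pool 3 (adjusted p = 0.0349). In lung 0 of 36 passed in limma, with 0 higher and 1 lower at an unadjusted p under 0.05. The water channel gene Aqp1, the adducin gene Add2 and the tropomodulin gene Tmod1 had lung differences of 0.25, -0.20 and 0.21. The Add2 probe set, 1450442_at, was dim in lung, and the brightest of that gene, 1431076_at, had 0.03.

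Of 31 probe sets from 15 genes for red cell transcription factors, a list that also held Trim10, E2f2 rose and Nfe2 fell in liver, 6.45% of the list beside 8.16% of all probe sets. E2f2, a cell cycle factor of late precursors, changed by 0.66 ± 0.14 (limma adjusted p = 0.00826). Nfe2, a factor of red cells and platelet precursors, changed by -0.92 ± 0.24 (adjusted p = 0.0274), a call lost without virgin liver pool 2 or 3 or pregnant liver pool 1 (highest adjusted p = 0.116), without both liver pools 3 (0.0834) and in the 6 liver arrays alone (0.0552). Lmo2 had a liver difference of -0.29 (adjusted p = 0.157), with -0.37 within pools 1 and 2 and -0.14 within pool 3, and passed without pregnant liver pool 3 (0.0320). In lung Trim10 was the only one of the 31 to pass, beside 0.213% of all probe sets. Foxo3, Klf3 and E2f2 had lung differences of 0.53, 0.62 and -0.35 (adjusted p = 0.12, 0.301 and 0.446). This E2f2 probe set, 1455790_at, was dim in lung, and the brighter 1436434_at had -0.10. The Klf3 value was that of 1421604_a_at, and the brightest Klf3 probe set, 1454666_at, had 0.26 (limma adjusted p = 0.489).

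The list of red cell enzymes and late maturation genes had the highest share of calls among the 7 red cell lists in liver, 12 of 32 probe sets or 37.5%, beside 8.16% of all probe sets. Bpgm and Cyb5r3 rose, and Car1, Car2, Blvrb, Gpx1, Pklr and Ube2l6 fell, with a median of -0.10 over the list. Gpx1, which removes peroxide, fell from 13.77 to 13.02 (-0.75 ± 0.09, limma adjusted p = 7.91e-05). The biliverdin reductase gene Blvrb changed by -0.74 ± 0.10 (adjusted p = 0.000226) and the cytochrome reductase gene Cyb5r3 by 0.69 ± 0.11 (adjusted p = 0.000782), with 0.56 and 0.95 within the pool sets. Hepatocytes also express Gpx1, Blvrb, Pklr and Cyb5r3, and 10 genes of the list, these 4 among them, had a probe set that was higher in virgin liver than in virgin lung. In lung Bpgm was the only one of the 14 genes to pass, on 1 of the 32 probe sets, beside 0.213% of all probe sets. Prdx2, Cat and Xpo7 had lung differences of -0.25, 0.29 and 0.29. The Xpo7 probe set, 1435814_at, was dim in lung, and the brightest of that gene, 1439411_a_at, had 0.04.

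Erythropoietin signalling genes had 3 rises and 0 falls among 24 probe sets from 10 genes in liver (2 lower at an unadjusted p under 0.05 in limma), where 3.7% of all probe sets were called higher and 4.46% lower. Bcl2l1, a survival factor, rose by 0.56 ± 0.09 (limma adjusted p = 0.00117), and Cish, a feedback inhibitor of cytokine signalling, by 0.54 ± 0.14 (adjusted p = 0.0313), with 0.69 within pools 1 and 2 and 0.23 within pool 3. The Cish call was lost without virgin liver pool 2 (0.32, adjusted p = 0.0900), pregnant liver pool 1 (0.0662) or pool 2 (0.105), with the pool number as a block (0.0623) and in the 6 liver arrays alone (0.129). Socs2 had a difference of -0.39 on 1442586_at (adjusted p = 0.121), with -0.25 and -0.66 within the pool sets. Its brighter probe sets 1449109_at and 1418507_s_at had differences of 0.16 and 0.11 (adjusted p = 0.676 and 0.653). Within the pool sets these were 0.08 and 0.31, and 0.04 and 0.26. The remaining Socs2 probe sets, with differences of both signs, did not pass either. In lung 0 passed in limma (2 higher and 0 lower at an unadjusted p under 0.05). Gata2, a factor of early blood progenitors and endothelium, had a lung difference of 0.70 ± 0.14 (adjusted p = 0.0509), which passed without virgin liver pool 2 (0.0199), and Bcl2l1 and Pim1 had 0.19 and 0.32.

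Single-symbol globin probe sets gave 0 calls of 11 in either tissue by limma, and 0 at an unadjusted p under 0.05. In lung Hbb-b2, Hba-a1 and Hbb-y had differences of -0.42, 0.19 and -0.10. The Hba-a1 probe set was dim on every array of both tissues. In liver Hbb-bh1, Hbb-b2 and Hba-a1 had 0.26, 0.31 and 0.21, which were 0.13 and 0.50, 0.49 and -0.05, and 0.01 and 0.60 within the pool sets. Hbb-b2 passed without pregnant liver pool 3 (0.50, limma adjusted p = 0.0465). The embryonic chains Hbb-y and Hba-x were dim on every array, with group means of at most 4.23. For Hbb-bh1, also an embryonic chain, 1437810_a_at was above the median on all 12 arrays. Its group means were 4.75 and 4.78 in virgin and pregnant lung and 5.10 and 5.36 in virgin and pregnant liver. The Hbb-bh1 probe sets 1437990_x_at and 1450736_a_at were dim on every array.

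**Figure D4:**
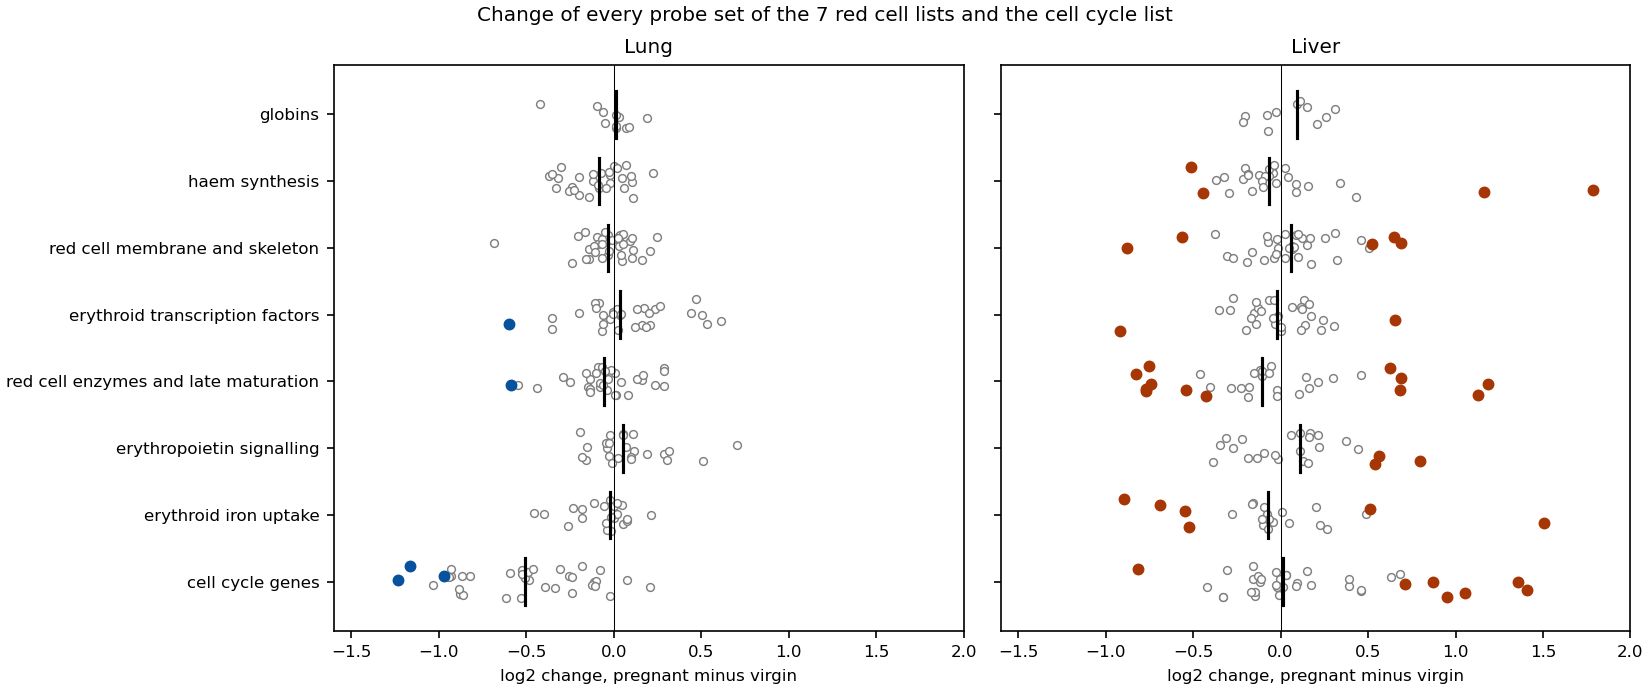
Log2 change, pregnant minus virgin (horizontal axis), of every probe set of the 7 red cell lists and of the cell cycle list in lung and in liver. Filled points had an adjusted p under 0.05, and black bars are list medians. In liver filled points lie on both sides of 0 in 5 of the 7 red cell lists, in erythropoietin signalling all 3 lie to the right, and globins have none.

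Markers of other cell types were read in the same samples. In liver, where 8.16% of all probe sets passed, the neutrophil markers, 12 measured genes, summed on the linear scale to 730 to 828 in virgin and 1190 to 2190 in pregnant mice, and 3 of 13 probe sets rose. Of these genes 4 were dim on every virgin liver array and 1 on every pregnant liver array. Platelet markers, 12 genes, summed to 756 to 783 and 896 to 1150, and 2 of 15 probe sets rose, those of Ppbp and Vwf. The other 13 did not pass and had differences of both signs, and the median over the list was 0.15. Markers of the macrophages that support red cell precursors and of Kupffer cells, 12 genes, summed to 4220 to 4780 and 3920 to 4810, and 1 of 25 probe sets fell. Cell cycle genes had 6 rises and 1 fall among 37 probe sets, with Ccna2 at 1.06 ± 0.22, Mki67 at 0.95 ± 0.22 and Tk1 at -0.82 ± 0.17 (limma adjusted p = 0.00785, 0.0145 and 0.00587), and summed to 2350 to 3410 and 2370 to 2970. Mki67 was lost without virgin liver pool 1 or pregnant liver pool 3 (adjusted p = 0.0596 and 0.0562) and in the 6 liver arrays alone (0.0539), and both Ccna2 and Mki67 without both liver pools 3 (0.0556 and 0.0929). The 9 hepatocyte markers summed to 133000 to 134000 and 132000 to 135000.

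In lung 0.213% of all probe sets passed. The cell cycle genes there, 19 measured, summed to 3860 to 4370 in virgin and 2920 to 3200 in pregnant mice. Of their 37 probe sets 0 rose, 3 fell and 34 did not pass in limma. At an unadjusted p under 0.05 there were 0 higher and 21 lower, with no share of all probe sets counted beside them. Cdc6, Tk1 and Mcm5 changed by -1.23, -0.97 and -1.16 (limma adjusted p = 0.00446, 0.0273 and 0.0356). Tk1 was lost without virgin lung pool 2 or 3 or pregnant lung pool 1 or 2 (highest 0.153), in the 6 lung arrays alone (0.0785) and without both liver pools 3 (0.0532). Mcm5 was lost without the same pools, pregnant lung pool 3 or virgin liver pool 3 (highest 0.184), with the pool number as a block (0.0854), after quantile normalization (0.0791) and without both liver pools 3 (0.0636). Neutrophil markers summed to 7170 to 9110 and 11300 to 19200, and 1 of 13 probe sets rose (S100a9). Platelet markers summed to 3900 to 4610 and 4570 to 8080, and 1 of 15 rose (Thbs1). The part of these cells in the results for Bpgm, Trim10 and the liver genes was not tested.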

How the data were processed

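Lung and liver RNA was measured on 12 Affymetrix mouse arrays, 3 in each of 4 groups. Values are the authors' deposited log2 expression values, made with RMA and the affy package per the submitters' processing notes; RMA corrects background, normalizes between arrays and summarises the probes of a probe set, and which arrays were normalized together is not given in the sources used here. No sequencing depth applies, and the number of arrays limits precision. The 64 control probe sets were left out. limma 3.58.1 in R 4.3.3 was fitted to 45037 probe sets as 4 group means, with no replicate block, and p-values were adjusted by Benjamini-Hochberg over all of them; a call is an adjusted p under 0.05. The script was tested on simulated data.

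Symbols come from the platform annotation: 34945 probe sets had 1 symbol, 932 several and 9160 none. The members and lists were chosen with earlier results of these data known. All member probe sets are shown. Of each list, up to 3 further genes per tissue with the smallest unadjusted p are named, 1 probe set each, and the 5 genes most like Alas2 over the 12 arrays. Alternatives varied the arrays fitted, probe sets kept, scaling, variance model, blocks, threshold and each single array. The labels do not say whether pool numbers pair the samples. Same-numbered pools of 2 groups correlated between -0.08 and 0.11 after group means were removed, and the highest values for other numbers were -0.02 to 0.11. With 3 arrays in each group these correlations cannot decide whether pools were paired.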

Additional observations from a re-analysis of the deposited data

Results flagged for a closer look

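The pregnancy change differed between lung and liver, by a limma test of that difference, for 7 probe sets of 4 genes. The lung change minus the liver change was -1.42 for Alas2 (adjusted p = 0.000188). It was -1.73, -1.27 and -1.57 for the Bpgm probe sets 1415864_at, 1415865_s_at and 1448119_at. For the Tspan33 probe sets 1451608_a_at and 1455618_x_at it was -0.82 and -0.93. For the dim Epb42 probe set 1417338_at it was 0.67, the only one of the 7 above 0. Groups held 3 arrays, so single arrays standing apart were not tested.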

How the results depend on the processing

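No called change turned its direction in any alternative run. Of the 2 lung calls, 0 were left with the 6 lung arrays alone (7 at an unadjusted p under 0.05 in limma), 0 with the replicate block (6 unadjusted) and 0 at an adjusted p under 0.01 (6 unadjusted). There was 1 without probe sets of suffixed name, with arrays centred on their median, with quantile normalization, with the 2 liver pools 3 (set apart by their poly-A spike signal, not by any label) as a block and without both of them. Leaving out 1 array left 0 to 2 lung calls, 0 without virgin lung pool 1, 2 or 3 or pregnant lung pool 1 or 2. The 10 liver calls became 6 of 10 with 1 probe set a gene and 5 of 11 without suffixed probe sets, where fewer probe sets are tested, 9 with the replicate block, 8 in the 6 liver arrays alone, and 7 to 10 without 1 array. The 7 of 18 differences between tissues became 3 of 11 without suffixed probe sets, 4 at an adjusted p under 0.01, 7 with the replicate block, and 5 to 7 without 1 array. The 15 of 18 differences between virgin organs became 9 of 10 with 1 probe set a gene and 9 of 11 without suffixed probe sets. In these 2 fits 68.7% and 52.7% of all probe sets tested differed. Without 1 array there were 15 to 16. Apart from the smaller tests just named, the cause was not tested. The replicate block, whose numbers are not known to pair the pools, also ended the calls given with each gene above. Dim probe sets, Epb42 foremost, are limited by signal over background.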
